A study of Mus musculus with 6 samples.

Results

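Transcripts of the PIM kinases and of the SOCS feedback inhibitors, both inducible by cytokines, were followed in sorted mouse thyroid tumor cells. The set holds 10 genes, namely the kinase genes Pim1, Pim2 and Pim3, the feedback inhibitor genes Socs1, Socs2, Socs3 and Cish, the transcription factor gene Stat3, and the receptor genes Il6st and Osmr. They were taken by symbol from the 35027 genes of the deposited table, and all 10 had a row. The genes were selected on their deposited TPM values in the BrafYAP against YAP comparison, with its results already known, so the values of its 10 genes in that comparison are given as a description, with no test.

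Kate-positive cells were sorted from thyroid tumors of 2 genotypes and sequenced as bulk RNA, with 3 libraries of each. YAP mice (replicates 1, 2 and 3) carried a doxycycline (dox)-inducible transgene for YAPS127A, a mutant of the Hippo pathway coactivator YAP that stays in the nucleus. BrafYAP mice (replicates 1, 2 and 6) carried the same transgene together with BrafV600E, an activated BRAF kinase made from the endogenous gene. In both genotypes Cre under a thyroid-specific promoter switched on the dox-responsive activator and the red fluorescent protein Kate, and both received dox chow, from 4 weeks of age by the labels (the study's text also gives a later start). Cells were released by 1 h of enzyme digestion at 37 °C, and about 20000 were sorted per library. By the labels, 3 tumors were combined for every YAP library whereas 1 tumor was used for every BrafYAP library, so pooling and genotype cannot be told apart. P-values measure only the spread between these 6 libraries.

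Cytokines of the interleukin-6 (IL-6) family, such as IL-6, oncostatin M and LIF, bind receptors that share the signaling chain gp130. The receptor activates JAK kinases, which phosphorylate STAT3, and STAT3 then enters the nucleus and switches on genes that include the SOCS and PIM genes. SOCS proteins bind the receptor or its JAK and end the signal, so their transcripts are often read as a sign that a cytokine has acted. PIM kinases are serine/threonine kinases that need no activating phosphorylation, so that their activity depends largely on the amount of protein, and they favor survival and protein synthesis. Transcripts alone do not give that amount. SOCS3, PIM1 and PIM3 transcripts can also be induced by growth factor signaling and by stress.

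The table holds TPM (transcript abundance scaled for length and library) that were divided by each gene's whole genomic span. A value is therefore comparable between libraries for 1 gene, but not between genes. Estimated reads were recovered from the steps between low values, and came to 26.2 to 36.9 M reads per library. Scaled reads are these reads returned to the scaling of the table. Of the 10 genes, 8 had a mean TPM of at least 1 and all 10 had a mean of at least 10 scaled reads. The lowest was Socs1, with 23 to 108 reads per library.

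The labelled cell type was checked first. Of 12 thyroid follicular markers, the transcription factor gene Pax8 had 5843 to 14237 reads in every library. The keratin gene Krt8 had at least 19709 reads in every library. Transcripts of immune cells were present as well. The 16 immune markers summed to 15280 to 49273 TPM by exonic length in YAP and 4298 to 15023 in BrafYAP libraries. All 16 had reads, and the pan-leukocyte gene Ptprc had 1623 to 2473 reads in YAP and 521 to 983 in BrafYAP libraries. BrafYAP replicate 6 stood apart with C-cell and parathyroid markers, at 872 TPM summed by exonic length. YAP replicate 2 followed with 196 TPM and YAP replicate 1 with 61.4 TPM, and the remaining libraries had 0.215 to 4.38 TPM. In bulk RNA, fewer cells of a type and less RNA per cell cannot be told apart.

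Pim3 and Socs3 were higher in every BrafYAP library than in any YAP library, and Cish was lower in every BrafYAP library. The groups overlapped for the other 7 genes. Over all 16834 genes with a mean of at least 10 scaled reads, the groups did not overlap for 28.7%, of which 11.6% of genes were higher and 17.1% lower in BrafYAP cells. The median difference of the 10 genes (BrafYAP minus YAP) was 0.33 on log2(scaled reads + 1), and that of all genes was -0.12. By limma across the whole table, 1 of the 8 genes with a mean TPM of at least 1, Pim3, was among the 18 of 7319 genes (0.246%) with an adjusted p-value under 0.05, of which 0.082% of genes were higher and 0.164% lower in BrafYAP cells. On scaled reads, 0 of the 10 and 0 of all 16834 genes (0%) passed, with 3404 genes at an unadjusted p-value under 0.05. Nothing is read from these counts, because the set was chosen with the comparison known.

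**Figure D1:**
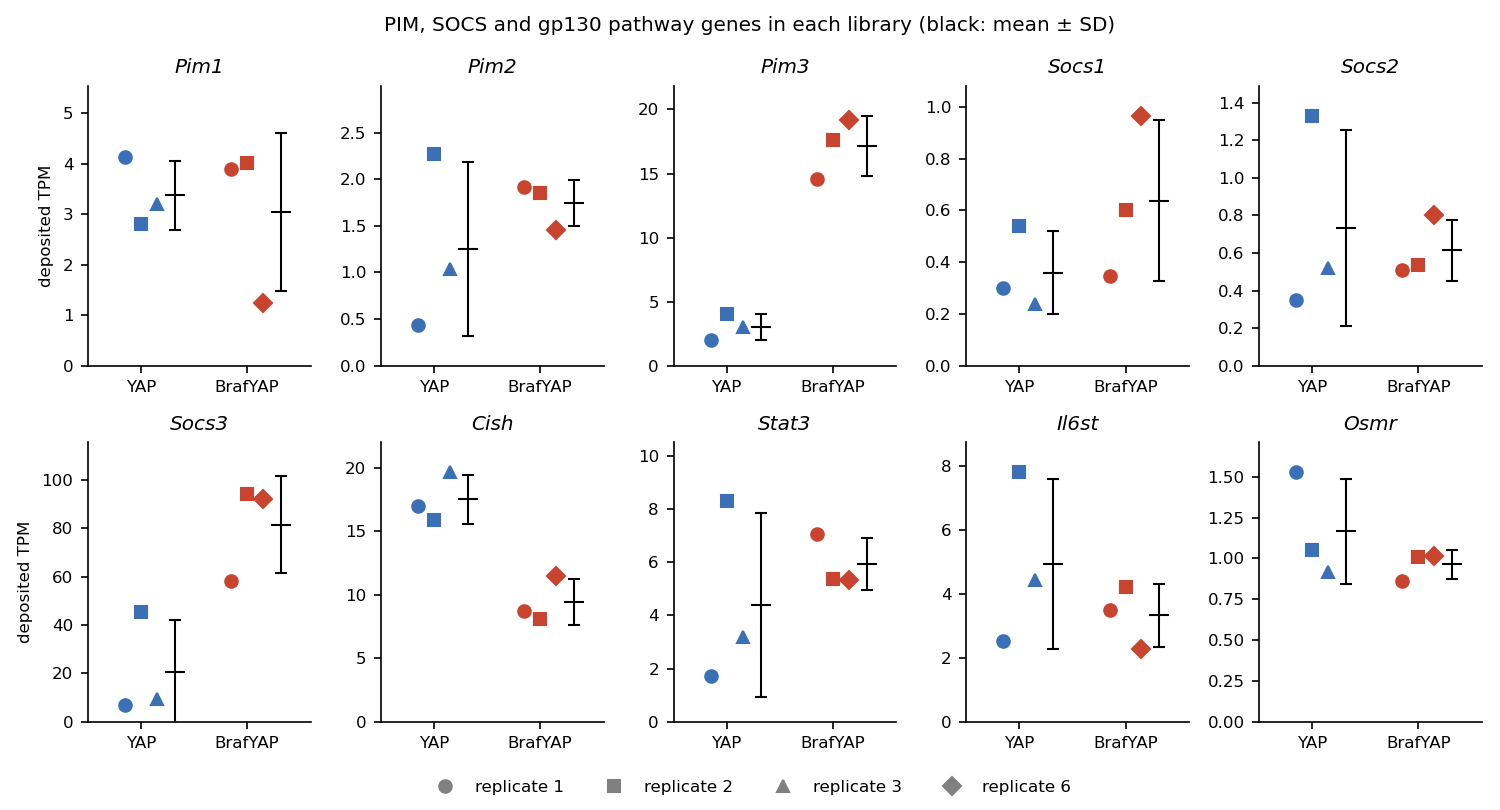
Deposited TPM (y axis, linear from 0, own scale per panel) of the 10 genes in each of the 3 YAP (blue) and 3 BrafYAP (red) libraries, with marker shapes for replicate numbers and the mean ± SD in black (the bar of Socs3 in YAP is cut at 0). Pim3 and Socs3 lie higher in all 3 BrafYAP libraries, Cish lies lower, and the other 7 genes overlap.

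The 3 PIM kinase genes were taken first. Pim3 (ENSMUSG00000035828, chromosome 15, 88862186 to 88865726, mm10) had 1.98, 4.03 and 2.98 TPM in YAP replicates 1, 2 and 3, and 14.6, 17.6 and 19.2 TPM in BrafYAP replicates 1, 2 and 6. The lowest BrafYAP library was thus 3.61 times the highest YAP library. The group means were 3.00 ± 1.03 (SD, n = 3) and 17.1 ± 2.36 TPM (SD, n = 3), a ratio of 5.72. These values rested on 205 to 352 reads per YAP library and 1403 to 2396 per BrafYAP library. The difference on log2(scaled reads + 1) was 2.56 (SE 0.34), and it lay between 2.29 and 2.81 when any 1 library was left out.

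Pim1 (chromosome 17, 29490753 to 29496112), the first PIM gene to be found at retroviral insertion sites in lymphomas, had 4.13, 2.80 and 3.20 TPM in YAP and 3.90, 4.01 and 1.24 TPM in BrafYAP replicates 1, 2 and 6. BrafYAP replicates 1 and 2 lay inside the YAP range, and BrafYAP replicate 6 lay below it. The log2 difference of -0.31 (SE 0.50) turned to 0.25 without BrafYAP replicate 6, so its sign rested on that library. Pim2 (chromosome X, 7878262 to 7883432) had 0.436, 2.27 and 1.04 TPM in YAP and 1.92, 1.85 and 1.46 TPM in BrafYAP libraries. Its YAP libraries spanned a range of 5.21-fold, around all 3 BrafYAP values, and the log2 difference of 0.77 (SE 0.59) was 0.17 without YAP replicate 1 and 1.36 without YAP replicate 2. Pim1 shares its locus with Gm26885 on the other strand, which had 5 to 36 reads, and the counting was not stated to use strand.

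Relative amounts of the 3 kinase transcripts were compared on TPM recomputed with the exonic length. Pim3 made up 28.1 to 40.5% of the PIM sum in YAP libraries and 68.5 to 85.7% in BrafYAP libraries. Pim1 took 30.7 to 64.1% in YAP and 6.05 to 20.04% in BrafYAP libraries. The sum itself was 26.6 to 36.5 TPM in YAP and 83.3 to 97.7 TPM in BrafYAP cells, so the PIM pool was larger in BrafYAP cells and Pim3 was its main transcript there. In YAP cells Pim1 was the main transcript in replicates 1 and 3, and Pim3 in replicate 2.

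**Figure D2:**
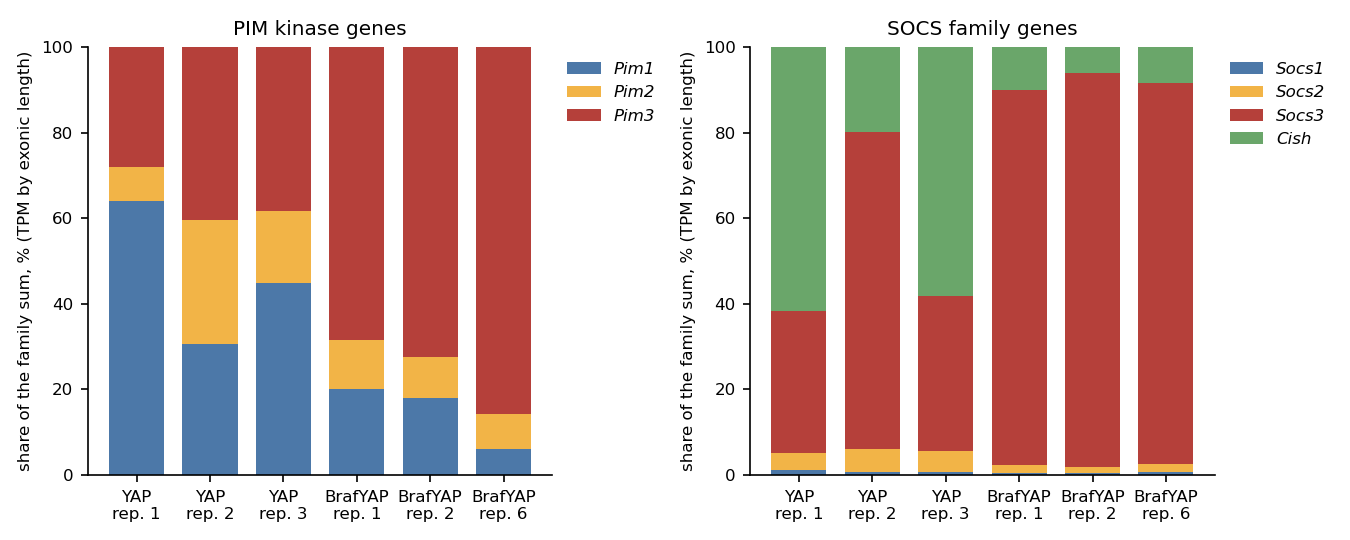
Share of each gene in the summed TPM by exonic length (y axis, %) of the PIM kinase genes (left) and the SOCS family genes (right), with 1 bar for each library. Pim3 takes 68.5 to 85.7% of the PIM sum in BrafYAP libraries, and Socs3 takes 87.7 to 92.2% of the SOCS sum there.

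Among the feedback inhibitors, Socs3 and Cish differed in opposite directions. Socs3 (ENSMUSG00000053113, chromosome 11, 117966079 to 117970047), whose protein binds gp130 and blocks its JAK, had 6.98, 45.6 and 9.42 TPM in YAP replicates 1, 2 and 3. It had 58.3, 94.2 and 92.0 TPM in BrafYAP replicates 1, 2 and 6. YAP replicate 2 stood far above the other YAP libraries, and the lowest BrafYAP library was 1.28 times as high as it. The means were 20.7 ± 21.6 (SD, n = 3) and 81.5 ± 20.1 TPM (SD, n = 3), a ratio of 3.94. The log2 difference was 2.46 (SE 0.69), 3.29 without YAP replicate 2 and 1.94 without YAP replicate 1.

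Cish (ENSMUSG00000032578, chromosome 9, 107296026 to 107302784), a feedback gene best known from STAT5 signaling, had 17.0, 15.9 and 19.7 TPM in YAP libraries. In BrafYAP replicates 1, 2 and 6 it had 8.72, 8.08 and 11.5 TPM. The 2 groups were each narrow, with the highest value 1.24 times the lowest in YAP and 1.42 times in BrafYAP, and the lowest YAP library was 1.38 times the highest BrafYAP library. The means were 17.5 ± 1.94 (SD, n = 3) and 9.42 ± 1.80 TPM (SD, n = 3). The log2 difference of -0.91 (SE 0.27) ranged from -1.06 to -0.80 when 1 library was left out. The antisense genes Gm17040 and Gm17041 overlap Cish, and Gm17040 had at most 9 reads.

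Among the genes of the set with a promoter sequence, Cish and Socs3 are also those whose promoters hold the letters of a STAT site. RefSeq promoters (GRCm38.p6, 250 bases before to 50 bases after the start) were found for 9 of the 10 genes, 10 promoters in all. The motif TTCNNNGAA, which reads the same on both strands, was present in 2 of these 10 promoters, those of Cish and Socs3. It was present in 8.30% of all 32851 promoters of this length. The windows are shown 5′ to 3′ on the strand of the gene, with the motif letters in capitals, because they contain the set's STAT motif matches.
Cish, chr9:107296654-107296683, plus strand: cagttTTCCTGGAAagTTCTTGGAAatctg
Socs3, chr11:117969502-117969531, minus strand: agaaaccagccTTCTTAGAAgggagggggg
The Cish window holds a pair of neighbouring matches, the first of which begins at the RefSeq start, and the Socs3 match begins 154 bases before its start. A match describes the letters alone. The groups were in opposite order for these 2 genes. On the same promoters, the AP-1 motif TGANTCA was found in Osmr (7.81% of all promoters) and the TEAD motif GGAATG, the site of the factors that YAP binds, in Cish and Stat3 (14.7% of all promoters), with both strands searched.

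Socs1 and Socs2 were low, and their groups overlapped. Socs1 (chromosome 16, 10782240 to 10785536), which inhibits JAK kinases downstream of interferon receptors, had 0.300, 0.542 and 0.239 TPM in YAP and 0.346, 0.601 and 0.965 TPM in BrafYAP libraries. These TPM came from 29, 44 and 23 reads and from 31, 76 and 108 reads. BrafYAP replicates 2 and 6 lay above the YAP range and BrafYAP replicate 1 within it, and the log2 difference of 0.77 (SE 0.57) was 0.42 without BrafYAP replicate 6. Socs2 (chromosome 10, 95385362 to 95417180), an inhibitor of growth hormone signaling, had 0.350, 1.33 and 0.522 TPM in YAP and 0.507, 0.534 and 0.801 TPM in BrafYAP libraries. All 3 BrafYAP libraries lay within the YAP range, and the log2 difference of -0.05 (SE 0.52) changed sign with the libraries left out, from -0.47 to 0.49. By exonic length Socs3 made up 33.0 to 74.2% of the SOCS family sum in YAP and 87.7 to 92.2% in BrafYAP libraries, and Cish 19.8 to 61.8% and 6.07 to 10.1%. The exonic length of Cish and Socs2 joins all annotated isoforms, so these shares understate a gene whose long isoforms are little used.

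The receptor and transcription factor genes did not separate the genotypes. Stat3 (chromosome 11, 100885098 to 100939540) had 1.71, 8.29 and 3.20 TPM in YAP and 7.06, 5.38 and 5.34 TPM in BrafYAP libraries. YAP replicate 2 was the highest of all 6 libraries, and the 2 remaining YAP libraries were the lowest. The log2 difference was 0.72 (SE 0.55), 0.19 without YAP replicate 1 and 1.33 without YAP replicate 2. The end of Stat3 overlaps the end of Stat5a, which had 350 to 1188 reads against 2735 to 11249.6 for Stat3.

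Il6st (chromosome 13, 112464070 to 112510086), the gene of gp130, had 2.54, 7.81 and 4.45 TPM in YAP and 3.49, 4.23 and 2.28 TPM in BrafYAP libraries. Here too YAP replicate 2 was the highest library. The log2 difference of -0.47 (SE 0.46) kept its sign in each fit without 1 library but came down to -0.06 without YAP replicate 2. Osmr (chromosome 15, 6813577 to 6874969), the gp130 partner in the oncostatin M receptor, had 1.53, 1.05 and 0.919 TPM in YAP and 0.863, 1.01 and 1.02 TPM in BrafYAP libraries. The highest library was YAP replicate 1, and the log2 difference was -0.24 (SE 0.29).

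By exonic length, the mean levels over the 6 libraries ran from Socs3 (187 TPM) through Stat3 (78.1), Il6st (45.2), Pim3 (39.5), Cish (37.5), Osmr (14.3), Pim1 (13.6), Pim2 (7.34) and Socs2 (5.92) to Socs1 (1.50 TPM). Neighbours in this order overlapped in their library ranges from Socs3 to Cish and from Osmr to Socs2. Cish lay above Osmr without overlap, and Socs2 lay narrowly above Socs1 (lowest 3.02 against highest 2.92 TPM). The exonic length joins all annotated isoforms of a gene, so the order understates genes whose long isoforms are little used. The order pools the genotypes and did not hold in each library: in YAP replicates 1 and 3 Socs3 (24.8 and 35.4 TPM) lay below Stat3 (25.4 and 49.9), Il6st (27.3 and 50.4) and Cish (46.4 and 56.6 TPM). In YAP cells alone, Cish (48.3 ± 7.52 TPM, SD, n = 3) was above Pim3 (11.4 ± 3.68 TPM, SD, n = 3) in every library, and in BrafYAP cells Pim3 (67.6 ± 9.29 TPM, SD, n = 3) was above Cish (26.8 ± 4.79 TPM, SD, n = 3) in every library.

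**Figure D3:**
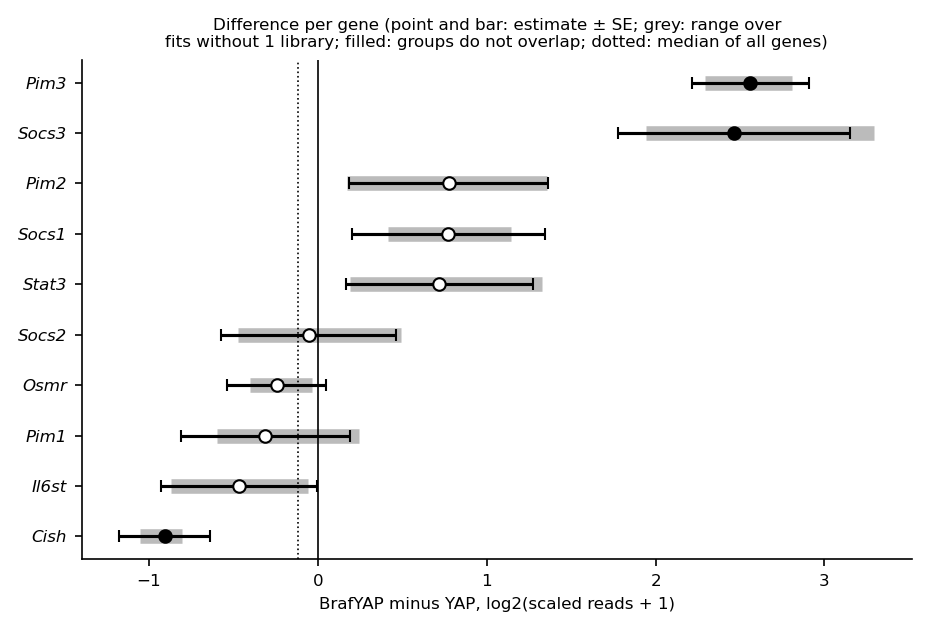
Difference between BrafYAP and YAP libraries per gene (x axis, log2(scaled reads + 1)), as estimate ± SE from the fit over all genes, with the range over the 6 fits without 1 library in grey, filled points where the groups did not overlap, and the median of all genes dotted at -0.12. Pim3 (2.56) and Socs3 (2.46) lie to the right and Cish (-0.91) to the left with their grey ranges away from 0, while the ranges of Pim1 and Socs2 cross 0.

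The YAP libraries differed among themselves for most of the set. YAP replicate 2 was the highest YAP library for 7 of the 10 genes, where it was the highest for 36.1% of all genes. It was not so for Pim1, Cish and Osmr. Without it, the groups no longer overlapped for Pim2, Socs1 and Stat3 either, all higher in BrafYAP cells, and 6 of the 10 genes were then separated. Over all genes, 46.7% were separated without that library, against 28.7% with it and 34.9 to 43.5% without any other single library. Leaving out 1 library can only raise this share. BrafYAP replicate 6 was the lowest of its group for 4 genes and the highest for 5.

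The genes most like the most abundant members in pattern were looked up over the 6 libraries, by Pearson's r of log2(scaled reads + 1). For Stat3 they were Sh2b2 (r = 0.999), Gm9920 (0.994) and Tmem135 (0.991). For Socs3 they were Paox (0.999), Ctu1 (0.997) and Atp2b1 (0.996), and for Il6st Dennd1a (0.988), Cyp4f16 (0.978) and Gm6580 (0.977). With 6 libraries high values of r are common: 948 genes had r over 0.9 with Stat3, 1114 with Socs3 and 93 with Il6st, of 16833 in each case. The points are 3 libraries of each genotype, so a difference between genotypes enters r.

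The remaining genes of the pathway were compared from lists of 87 genes, of which 79 were tested on scaled reads and 43 on TPM. None passed the limma threshold over all genes on either scale (0 of 79 and 0 of 43). At an unadjusted p-value under 0.05 there were 20 of 79 genes, 9 higher and 11 lower in BrafYAP cells, beside 20.2% of all genes, and 11 of 43 on TPM. The groups did not overlap for 25 of the 79, 11 higher and 14 lower, beside 28.7% of all genes. The lists as a whole were thus near the background of the table, and their median difference was 0.08 on the log2 scale.

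Ligands of the IL-6 family were looked at first, since they are what the receptors read. The groups did not overlap for 4 of 9 genes. Cntf was lower, with 440.0, 190.0 and 358 reads against 88, 140.0 and 1 (log2 difference -3.63, SE 1.49, limma adjusted p = 0.233), and -1.70 without BrafYAP replicate 6. It overlaps Zfp91 on the same strand, so its reads are uncertain. Il27 had 21 to 27 reads against 0 to 8, and Ctf1 8 to 18 reads against 26 to 33. The groups overlapped for the ligand genes Osm, Il6 and Lif. Osm, the oncostatin M gene, had 9.41, 32.1 and 6.85 TPM in YAP and 15.9, 14.1 and 10.2 TPM in BrafYAP libraries. Il6 had 25 to 44 reads in YAP and 86, 27 and 887 reads in BrafYAP replicates 1, 2 and 6, so that its high value belonged to BrafYAP replicate 6. Lif had 4.28, 2.44 and 5.36 TPM against 4.59, 3.52 and 1.54 TPM.

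None of the 4 tested IL-6 family receptors and none of the 4 JAK kinase genes separated the genotypes. The IL-6 receptor gene Il6ra had 31 to 57 reads in all 6 libraries, and the LIF receptor gene Lifr 183 to 480. Jak1, the main kinase bound to gp130, had a log2 difference of 1.01 (SE 0.41, limma adjusted p = 0.228). Of the other cytokine receptors, 6 of 18 were separated, 2 higher and 4 lower. Lepr, the leptin receptor gene, had 12, 10 and 0 reads in YAP and 66, 160.0 and 232 reads in BrafYAP libraries. Il2rg, the common gamma chain gene of lymphocytes and myeloid cells, had 40.3, 35.7 and 14.8 TPM in YAP and 12.6, 5.44 and 2.74 TPM in BrafYAP libraries (log2 difference -2.28, SE 0.63, limma adjusted p = 0.127). Csf3r had 104 to 460.0 reads against 5 to 54, and Il15ra differed by -1.71 (SE 0.50, limma adjusted p = 0.138).

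Of the 6 other STAT genes, 3 were separated, all lower in BrafYAP cells. Stat2 differed by -1.35 (SE 0.39, limma adjusted p = 0.135) and Stat6 by -0.73 (SE 0.26, limma adjusted p = 0.186). Of these 6 STAT genes, 2 had a difference above 0 and 4 below it. Stat3 had a difference above 0 as well (0.72), and its groups overlapped.

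Of the 4 other SOCS box genes, Socs6 had 380 to 1060 reads in YAP and 1709 to 2008 in BrafYAP libraries. Socs4, Socs5 and Socs6 were each higher in all 3 BrafYAP libraries, with log2 differences of 0.63 (SE 0.39), 0.71 (SE 0.33) and 1.05 (SE 0.47), and limma adjusted p-values of 0.394, 0.279 and 0.264. Among the 10 other inhibitors, 1 was higher and 3 were lower in every BrafYAP library. Ptpn6, the phosphatase SHP-1 of blood cells, had 17.5, 18.04 and 9.20 TPM in YAP and 6.69, 3.98 and 2.70 TPM in BrafYAP libraries (log2 difference -1.78, SE 0.43, limma adjusted p = 0.108). Pias2 differed by 1.14, Pias3 by -0.53 and Pias1 by -0.44, with limma adjusted p-values of 0.174, 0.352 and 0.402.

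Of the 15 other STAT3 response genes tested, 3 were higher and 1 lower in every BrafYAP library. Cebpd, a factor of the acute phase response, had 0.417, 1.08 and 0.621 TPM in YAP and 4.45, 7.67 and 21.6 TPM in BrafYAP libraries (log2 difference 3.77, SE 0.64, limma adjusted p = 0.076). Junb had 8.74, 409 and 66.7 TPM in YAP and 463, 440.0 and 614 TPM in BrafYAP libraries (log2 difference 3.01, SE 1.22, limma adjusted p = 0.228). YAP replicate 2 was close to the BrafYAP libraries in Junb, as it was high in Socs3. Il4ra differed by 0.76 (SE 0.40, limma adjusted p = 0.326) and Mcl1 by -0.47 (SE 0.31, limma adjusted p = 0.426). Among 10 PIM substrates and partners, Akt1s1, whose protein PRAS40 is a PIM and AKT substrate, had 0.424, 8.26 and 3.45 TPM against 15.7, 20.3 and 22.8 TPM (log2 difference 3.07, SE 0.98, limma adjusted p = 0.158). Cdc25c, a phosphatase of mitotic entry, was lower in every BrafYAP library (log2 difference -2.42, SE 0.44, limma adjusted p = 0.082).

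**Figure D4:**
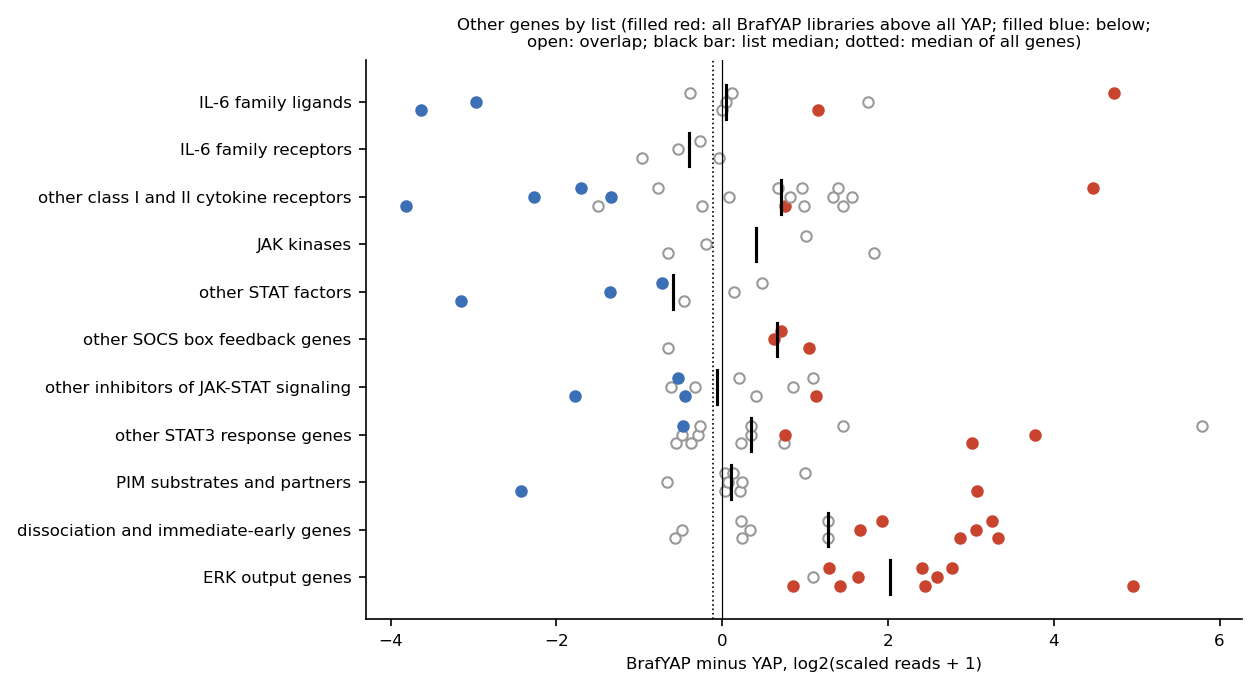
Difference between BrafYAP and YAP libraries on log2(scaled reads + 1) (x axis) for each tested gene of the other lists (rows), filled where the groups did not overlap (red higher, blue lower in BrafYAP), with the list median as a black bar and the median of all genes dotted. Of the 79 pathway genes 25 are filled, and of the ERK output genes 9 of 10, all to the right.

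Other transcripts varied along with these libraries and are given beside these results. Of the 13 dissociation and immediate-early genes, which tissue digestion can induce, 6 were higher in every BrafYAP library and the median difference was 1.28. Ier2 had 6.46, 174 and 36.3 TPM in YAP and 225, 289.6 and 363 TPM in BrafYAP libraries, and Hspa1a, which shares reads with its near-identical copy Hspa1b, had 10.6, 270.4 and 45.3 TPM against 306, 537 and 791 TPM. YAP replicate 2 was thus the highest and YAP replicate 1 the lowest YAP library for both. This order held for 6 of the 13 genes (Jun, Ier2, Atf3, Hspa1a, Hspa1b and Dnajb1) and not for the other 7, for 6 of the 10 genes of the set (Pim2, Pim3, Socs2, Socs3, Stat3 and Il6st), and for 25.8% of all genes. The 13 genes summed to 6246 to 9700.4 TPM by exonic length in YAP and 15339 to 21788 in BrafYAP libraries. The 10 ERK output genes, which follow the kinase cascade downstream of BRAF, were separated for 9 genes, all higher in BrafYAP cells, with a median of 2.03. Dusp4 differed by 4.95 (SE 0.67, limma adjusted p = 0.057), Etv5 by 2.77 and Spry4 by 2.59. The part of either set in the values of Socs3 and Pim3 was not tested.

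Immune markers lay the other way. Of the 13 tested, 7 were lower in every BrafYAP library, 0 were higher, and the median difference was -2.04. C1qa, a macrophage gene, had 363, 438 and 102 TPM in YAP and 61.8, 32.4 and 19.9 TPM in BrafYAP libraries, and Lyz2 had 1064 to 3960.3 TPM against 297 to 1179 TPM. YAP replicate 3 was the lowest YAP library for both, but not for every immune marker. The part of immune cells in the lower values of Cish, Il2rg, Ptpn6 and Csf3r was not tested. Endothelial markers (0 of 6 separated) and fibroblast markers (2 higher and 2 lower of 8) did not lie on one side.

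**Figure D5:**
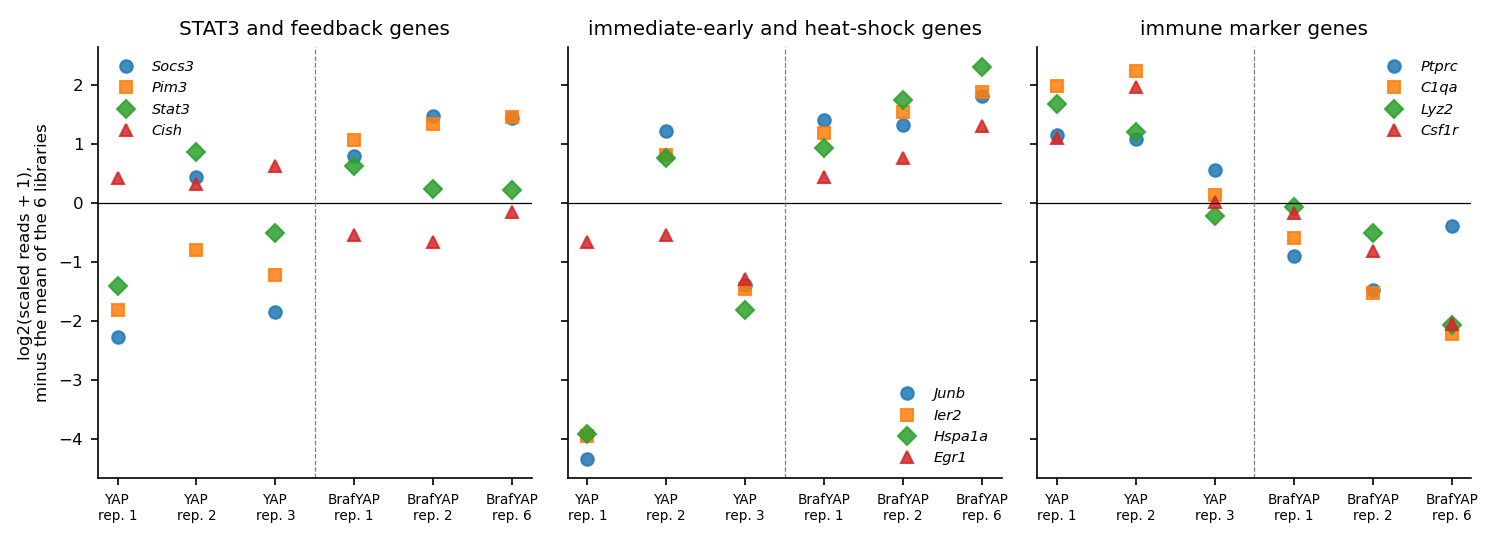
Level of each gene in each library as log2(scaled reads + 1) minus its mean over the 6 libraries (y axis), for 4 genes of the set (left), 4 immediate-early and heat-shock genes (middle) and 4 immune marker genes (right); the dashed line parts YAP from BrafYAP libraries, and Egr1, C1qa, Lyz2 and Csf1r were chosen after their values were seen. YAP replicate 2 lies above the mean in Socs3 (0.43), Stat3 (0.86), Junb (1.21), Ier2 (0.81) and Hspa1a (0.75) and below it in Pim3 (-0.79) and Egr1 (-0.54), and Ptprc and C1qa lie lower in all 3 BrafYAP libraries.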

How the data were processed

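RNA of about 20000 sorted cells per library was amplified (SMART-Seq, 12 cycles), made into libraries (8 further cycles) and sequenced as 50-nt pairs. Per the labels and the study's methods, the authors used STAR 2.6.1d and the mm10 genome for alignment, quantified reads in Partek (E/M model, Ensembl release 95) and deposited TPM with 0.0001 added. Each column summed to 181217.6, and 71.5 to 75.7% of low values were whole reads (within 0.05) after multiplication by the genomic span of GENCODE M21, against 10.4 to 18.6% with the exonic length. Symbols of 34709 genes matched GENCODE, 34645 at 1 locus. Estimated reads are (value - 0.0001) × span / step, with the step found per library from values under 200 reads. PCR duplicates carry no molecular identifier.

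TPM are not counts, so limma 3.58.1 in R 4.3.3 (eBayes with a trend, two-sided, Benjamini-Hochberg, threshold 0.05) was fitted over the whole table on log2(TPM + 1) where the mean TPM was 1 or more, and on log2(scaled reads + 1) where the mean was 10 or more. The fits were tested on simulated data. Differences and SEs in the text are those of the scaled reads. No covariate entered, and the labels give no batch. The members and all lists were chosen with earlier results of these data known. Named genes are the 10 members and, per list, up to 4 genes (3 for the dissociation and ERK lists) with groups that do not overlap, by size of difference, with defining markers; Osm, Il6, Lif, Il6ra, Lifr, Jak1, Lyz2, C1qa, Csf1r and Egr1 were added after their values were seen. Alternatives were another pseudocount, filter, normalization, length or eBayes setting, a replicate block and each library left out. Some genes of the lists are counted but not reported here by name.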

Additional observations from a re-analysis of the deposited data

How the results depend on the processing

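The signs of 8 of the 10 members' differences held in every alternative run. The signs of Pim1 (2 of 12) and Socs2 (4 of 11) changed in some, and 0 of 118 values moved by more than 1 SD between replicates. For the runs without 1 library this outcome was fixed in advance, because dropping 1 of 3 values cannot move a difference that far. Nothing is read from it for those runs. The members whose groups do not overlap stayed at 3 with median-ratio rescaling. They numbered 3 to 6 when 1 library was left out (6 without YAP replicate 2). In those runs 34.9 to 46.7% of all genes were separated (46.7% without YAP replicate 2). Separated groups stay separated when a library is dropped. The presence of Pim3, Socs3 and Cish in those runs, and a count of at least 3, were therefore fixed in advance. Pim3 passed the threshold in 4 of 15 fits on TPM and in 3 of 12 on scaled reads.

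The 18 genes past the threshold on TPM became 1 without a trend in eBayes, under median-ratio rescaling or when 0.1 was the pseudocount, 3 with a mean of at least 10 (2094 genes tested), 79 with quantile normalization, 62 with the exonic length, and 0 with no filter (3886 at an unadjusted p under 0.05), on scaled reads (3404) or with the replicate block (987). Leaving out 1 library gave 0 to 465 genes, with 465 without YAP replicate 2, 20 without BrafYAP replicate 6, and 0 without any other library (1028 to 1142 at an unadjusted p under 0.05). On scaled reads the count of 0 became 62 with quantile normalization, and leaving out 1 library gave 0 to 142 genes (3 without YAP replicate 2, 142 without BrafYAP replicate 6). Of the other pathway genes on TPM, 0 became 1 with quantile normalization and 0 to 4 when 1 library was left out (4 without YAP replicate 2, among them Akt1s1, Ifngr2 and Junb). On scaled reads it was 0 to 1 (1 without BrafYAP replicate 6). Median-ratio rescaling of the scaled reads, and quantile normalization and leaving out libraries for pathway genes on scaled reads, were added after seeing the data. What lies behind these shifts was not tested.

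Replicate numbers 1 and 2 occur in both genotypes, but libraries of the same number did not deviate together over the genes fitted on TPM (r = -0.05 and 0.06). A link confined to some genes could leave r near 0. Whether libraries of the same number were handled together was not tested. With the replicate block the count on TPM was 0 genes (987 at an unadjusted p under 0.05). Reads of 23 to 108 per library limit Socs1.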
